A study of Anas platyrhynchos with 6 samples.

Results

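Transcript isoforms of 5 genes, CMBL, FUT8, ZNF532, BNC1 and ARMH3, were followed in the ovaries of laying ducks, as 1 pair of RefSeq transcripts per gene. These 10 transcripts, of 41952 in the deposited tables, are named one by one by their accessions. They were chosen by their FPKM in these same high and low libraries, so the levels, sums and shares below are descriptions and no test is given for them. Ovaries came from Jinding ducks (Anas platyrhynchos, a Chinese laying breed) of one half-sib family, kept under the same feeding to 340 days of age. Ducks with a laying rate above 99% formed the high-production group (high 1 to 3) and ducks with a rate below 85% the low-production group (low 1 to 3), with 3 libraries in each group. No allele, drug or other agent was applied. Whether the libraries of a group stem from different ducks is not stated in the labels, so the spread between libraries may in part be technical, and library numbers do not pair the groups.

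A gene can give several mature RNAs through different start sites, splice choices or ends, and a change in the balance between them can leave the total output of the gene as it was. Short reads that fall in exons common to both isoforms are divided between them by estimation, so the values of a pair are not independent of each other, and an exchange between them is seen less directly than a change in their sum. Abundance is given in FPKM, which counts fragments per length of transcript and per size of library. The share of an isoform is its percentage of the summed FPKM of its pair in the same library.

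As a check of the tissue, oocyte markers, led by ZP2 and BTG4 (6 of 20 listed genes had a matched transcript), summed to between 709 and 983 FPKM in high libraries and between 421 and 1147 FPKM in low libraries. Genes listed as markers of granulosa cells, the layer that nurses the oocyte, were led by FST and CYP19A1 (4 of 13 listed genes). They summed to between 75.7 and 98.1 FPKM in high libraries and between 63.4 and 99.2 FPKM in low libraries. Which ovarian cells expressed CYP19A1, at a mean of 30.5 FPKM, was not examined. This sum may therefore not stand for granulosa cells alone. Stromal markers, led by DCN and OGN (7 of 11), summed to 1472 to 2029 FPKM in high and 1046 to 2023 FPKM in low libraries, and endothelial markers, led by VWF and PECAM1 (5 of 8), to 144 to 179 and 107 to 151 FPKM. Leukocyte markers, led by JCHAIN and LAPTM5 (6 of 12), summed to 435 to 1576 FPKM in high and 195 to 466 FPKM in low libraries, and the blood cell markers MMRN1 and TUBB1 (2 of 8) to 65.6 to 95.8 and 59.5 to 121 FPKM. The upper end of the leukocyte sum lay in high 1, where JCHAIN was at 1348 FPKM, against 388 and 282 FPKM in high 2 and high 3. No matched marker was at 0 throughout, and the sums of all 8 marker lists with a match overlapped between the groups. Leukocyte and stromal markers leaned one way all the same. The log2 difference, high minus low, was above 0 for 6 of 6 tested leukocyte markers (median 0.56) and 7 of 7 stromal markers (median 0.33). The 5 endothelial markers had no common direction, with 2 above 0 and 3 below (median -0.053). Among them PECAM1 was at 45.5 to 66.8 FPKM in high and 32.8 to 42.5 FPKM in low libraries, while every other endothelial marker overlapped between the groups. Over 19790 abundant transcripts, 8.54% did not overlap. Limma called 0 of these leukocyte and stromal markers, with 1 (LAPTM5) at an unadjusted p under 0.05. The smallest stromal log2 difference was 0.007. Low 1 had the lowest sum of both lists. Leukocyte markers summed to 195, 433 and 466 FPKM in low 1, 2 and 3, and stromal markers to 1046, 1596 and 2023 FPKM. The part of these cell types in the isoform shares was not tested. In pieces of whole ovary, fewer cells of a type and less RNA per cell cannot be told apart. Summed FPKM over all transcripts was 622708 to 639135 in high libraries and 569606 to 605510 in low libraries, and read depth is unknown.

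In 4 of the 5 genes the isoform shares of the high and low libraries did not overlap: CMBL, FUT8, ZNF532 and ARMH3. Among 548 genes with a pair of matched transcripts, the 5 included, 10.8% had shares that did not overlap. A background pair needed only a sum of 1 FPKM in every library, so its second transcript could be near 0. All 10 isoforms of the 5 genes reached 1 FPKM in at least 3 libraries, so the 2 sets are not alike. By group means of log2(FPKM + 1) the isoforms of all 5 genes differed in opposite directions, as was so for 45.6% of the 548 pairs, although 7 of the 10 isoforms overlapped between the groups. For CMBL this rests on a small difference of XM_005026096.2, 0.23 high minus low, which was -0.010 without low 2. Only in CMBL and ZNF532 did the pair sums separate the groups, and there all high sums lay below all low sums. For ZNF532 the gap was narrow, from 7.36 FPKM in high 1 to 7.63 FPKM in low 1. The percentage of the 548 pairs with sums that did not overlap was not computed. The sums of FUT8, ARMH3 and BNC1 overlapped. At the level of single transcripts, 3 of the 10 separated the groups, against 8.54% of 19790 abundant transcripts. ZNF532 XM_005023388.2 had all high values above all low values, against 3.72% of those transcripts, and CMBL XM_005026097.2 and ZNF532 XM_005023384.2 had all high values below, against 4.83%. Of the low libraries only low 3 had XM_005023388.2 at 1 FPKM or more, so it counted as abundant through the high libraries. Since these values chose the genes, nothing is read from the counts.

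**Figure D1:**
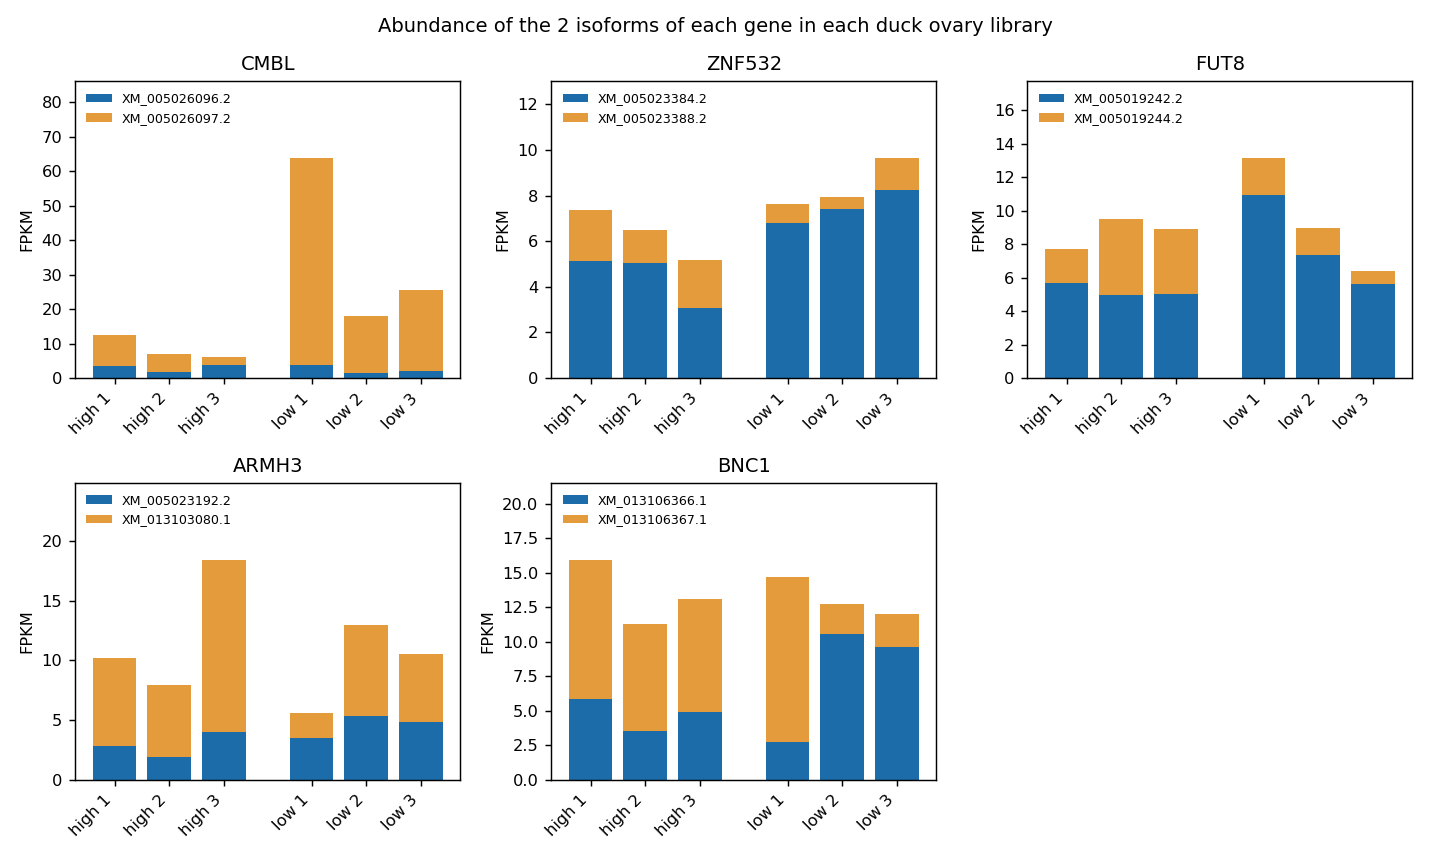
Stacked bars give the FPKM of both isoforms of each gene in each library, high libraries left of low libraries, with the axis of each gene starting at 0; blue is the first-listed isoform and orange the second. The CMBL bar of low 1 reaches 63.8 FPKM, and the BNC1 bars keep a similar height while their colours change places in low 2 and low 3.

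CMBL encodes carboxymethylenebutenolidase homolog, a cytosolic hydrolase known in humans for cleaving the ester prodrug olmesartan medoxomil. Its isoform XM_005026097.2 was at 9.10, 5.35 and 2.46 FPKM in high 1, 2 and 3 and at 60.0, 16.8 and 23.3 FPKM in low 1, 2 and 3. Every high library lay below every low library, and low 1 held by far the highest value. Group means were 5.64 ± 3.33 FPKM in high and 33.4 ± 23.3 FPKM in low ovaries (SD, n = 3 each), a high over low ratio of means of 0.169, which was 0.281 without low 1.

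The other CMBL isoform, XM_005026096.2, was at 3.36, 1.78 and 3.79 FPKM in high libraries and at 3.79, 1.38 and 2.17 FPKM in low libraries. These ranges overlapped almost fully, with means of 2.98 ± 1.06 and 2.45 ± 1.23 FPKM in high and low. The difference in the sum of the pair, 8.61 ± 3.36 FPKM in high and 35.8 ± 24.5 FPKM in low ovaries, thus lay in XM_005026097.2 alone: the high mean minus the low mean was -27.7 FPKM for that isoform and 0.529 FPKM for XM_005026096.2. The share of XM_005026096.2 was 27.0%, 24.96% and 60.6% in high libraries and 5.95%, 7.58% and 8.52% in low libraries. High 3 was the single library of the 6 in which XM_005026096.2 was the larger isoform. The difference of mean shares, 30.2 percentage points higher in high, was 18.6 points without high 3. In the newer duck gene table used for names, CMBL overlaps a non-coding gene, LOC140001919, and whether strand was used in the quantification is not stated here, so reads of the overlap may not belong to CMBL.

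FUT8 encodes the fucosyltransferase that adds the core fucose to N-linked glycans in the Golgi, which affects ligand binding by many cell surface receptors. XM_005019242.2, the larger isoform in all 6 libraries, was at 5.69, 4.97 and 5.02 FPKM in high libraries and at 10.9, 7.37 and 5.65 FPKM in low libraries. The groups overlapped only because low 3 stood just under high 1. XM_005019244.2 was at 2.05, 4.52 and 3.86 FPKM in high libraries and at 2.22, 1.59 and 0.725 FPKM in low libraries, where high 1 stood below low 1.

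The sum of the FUT8 pair was 8.71 ± 0.892 FPKM in high and 9.49 ± 3.42 FPKM in low ovaries, and the high sums, 7.74 to 9.49 FPKM, lay inside the low range of 6.37 to 13.1 FPKM. The share of XM_005019242.2 was 73.5%, 52.4% and 56.5% in high libraries and 83.1%, 82.3% and 88.6% in low libraries. Mean shares were 60.8 ± 11.2% and 84.7 ± 3.46%, a difference of -23.8 percentage points, high minus low. The share separated the groups although neither isoform did so alone. A pair of further FUT8 transcripts was matched, both below the abundance needed for the test (at least 1 FPKM in at least 3 libraries). XM_013099245.1 was at 1.84, 1.44 and 0.555 FPKM in high libraries and at 0.716, 0.743 and 0.732 FPKM in low libraries. XM_013099246.1 stayed between 0.000722 and 0.519 FPKM in high libraries and reached at most 1.09 FPKM, in low 1, in low libraries. Fitted without the abundance filter, their log2 differences were 0.35 (SE 0.264) and -0.16 (SE 0.317), with limma adjusted p-values of 0.957 and 0.990. The pair held between 76.6% and 89.9% of all matched FUT8 abundance, where 4 of the 8 FUT8 transcripts of the newer gene table were matched.

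ZNF532 encodes a zinc-finger protein of the nucleus, known in humans as a partner of ZMYND8, ZNF592 and ZNF687 in a chromatin complex. XM_005023384.2 was at 5.14, 5.03 and 3.05 FPKM in high libraries and at 6.82, 7.43 and 8.26 FPKM in low libraries, so that every high library lay below every low library. XM_005023388.2 went the other way, at 2.23, 1.47 and 2.14 FPKM in high libraries and at 0.809, 0.526 and 1.39 FPKM in low libraries. The gap between the groups was narrow there, with high 2 just above low 3.

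ZNF532 was the sole gene of the 5 in which both isoforms separated the groups, in opposite directions. Their means were 4.41 ± 1.17 and 7.50 ± 0.723 FPKM in high and low for XM_005023384.2, and 1.95 ± 0.415 and 0.907 ± 0.440 FPKM for XM_005023388.2. The sum was 6.35 ± 1.09 FPKM in high and 8.41 ± 1.08 FPKM in low ovaries. The share of XM_005023384.2 was 69.8%, 77.4% and 58.8% in high libraries and 89.4%, 93.4% and 85.6% in low libraries. It was the larger isoform in every library, by a factor of 1.43 to 3.42 in high and 5.95 to 14.1 in low libraries. The further matched ZNF532 transcript, XM_005023385.2, was under 1 FPKM in 5 libraries and at 1.72 FPKM in low 2. In the fit without an abundance filter its log2 difference was -0.087 (SE 0.296, limma adjusted p = 1.0), with values overlapping between the groups.

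BNC1 encodes basonuclin 1, a zinc-finger protein that in mice acts in oocytes and in dividing epithelial cells, where it takes part in the transcription of ribosomal RNA. XM_013106366.1 was at 5.86, 3.55 and 4.88 FPKM in high libraries and at 2.75, 10.6 and 9.62 FPKM in low libraries. XM_013106367.1 was at 10.1, 7.72 and 8.21 FPKM in high libraries and at 11.9, 2.21 and 2.40 FPKM in low libraries. Low 2 and low 3 therefore carried mostly XM_013106366.1, whereas low 1 and all high libraries carried mostly XM_013106367.1.

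The BNC1 sum hardly varied: it was 15.9, 11.3 and 13.1 FPKM in high libraries and 14.7, 12.8 and 12.03 FPKM in low libraries, a highest over lowest of 1.41. Only 9.76% of the other 543 pairs had a smaller spread. The share of XM_013106366.1, at 36.8%, 31.5% and 37.3% in high libraries and at 18.8%, 82.7% and 80.01% in low libraries, spanned 63.9 percentage points, more than in 96.7% of the other pairs. Mean shares were 35.2 ± 3.19% in high and 60.5 ± 36.2% in low ovaries. The low values stood on both sides of the high ones, so the difference of -25.3 points, high minus low, does not describe any single low library. It was -46.2 points without low 1, -14.2 points without low 2 and -15.5 points without low 3.

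The libraries with most XM_013106366.1 were also those with the highest sum of smooth muscle markers, for which 2 of 8 listed genes were matched, ACTA2 and CALD1. This was 1 of 8 marker lists with a match. Their summed level was 1999, 1949 and 1574 FPKM in high libraries and 1298, 2377 and 2759 FPKM in low libraries, so low 2 and low 3 were highest and low 1 lowest. Most of that sum was ACTA2, at a mean of 1804 FPKM. The most abundant CALD1 transcript was at 95.5 FPKM in high 1, 92.9 FPKM in low 2 and 96.0 FPKM in low 3. Oocyte marker sums were 983, 834 and 709 FPKM in high libraries and 1147, 851 and 421 FPKM in low libraries, an order in which low 2 and low 3 were not together. Surface epithelium markers (2 of 11 listed genes, ESRP1 and LHX9) stayed between 10.4 and 15.6 FPKM in high libraries and between 10.1 and 16.4 FPKM in low libraries. The part of any of these cell types in the BNC1 isoform balance was not tested.

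**Figure D2:**
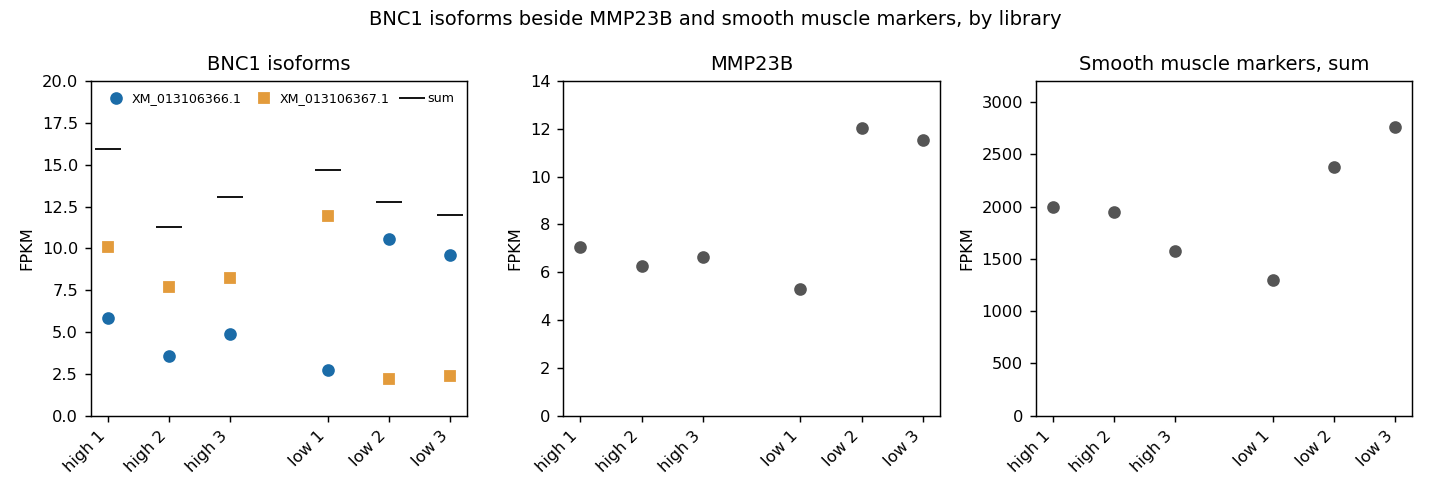
Points give FPKM by library, high libraries left of low libraries, for both BNC1 isoforms with their sum (dashes), for MMP23B and for the summed smooth muscle markers. In low 2 and low 3 XM_013106366.1 (blue circles) stands at 10.6 and 9.62 FPKM and XM_013106367.1 (orange squares) at 2.21 and 2.40 FPKM, while the sums stay between 11.3 and 15.9 FPKM.

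ARMH3 encodes an armadillo-like helical protein, known in human cells as a partner of the lipid kinase PI4KB at the Golgi and of GBF1, the activator of ARF GTPases. XM_005023192.2 was at 2.79, 1.93 and 3.98 FPKM in high libraries and at 3.48, 5.30 and 4.81 FPKM in low libraries. XM_013103080.1 was at 7.41, 6.04 and 14.5 FPKM in high libraries and at 2.12, 7.67 and 5.71 FPKM in low libraries. Both isoforms overlapped between the groups, and high 3 and low 1 held the extremes of XM_013103080.1.

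The share of XM_005023192.2 nevertheless separated the groups, at 27.3%, 24.2% and 21.6% in high libraries and 62.2%, 40.9% and 45.7% in low libraries. Mean shares were 24.4 ± 2.89% in high and 49.6 ± 11.2% in low ovaries, a difference of -25.2 percentage points, high minus low. XM_013103080.1 was the larger isoform in all high libraries and in low 2 and low 3, and XM_005023192.2 was larger in low 1 alone. Pair sums were 12.2 ± 5.51 FPKM in high and 9.70 ± 3.75 FPKM in low ovaries. They were highest in high 3, at 18.4 FPKM, and lowest in low 1, at 5.598 FPKM.

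**Figure D3:**
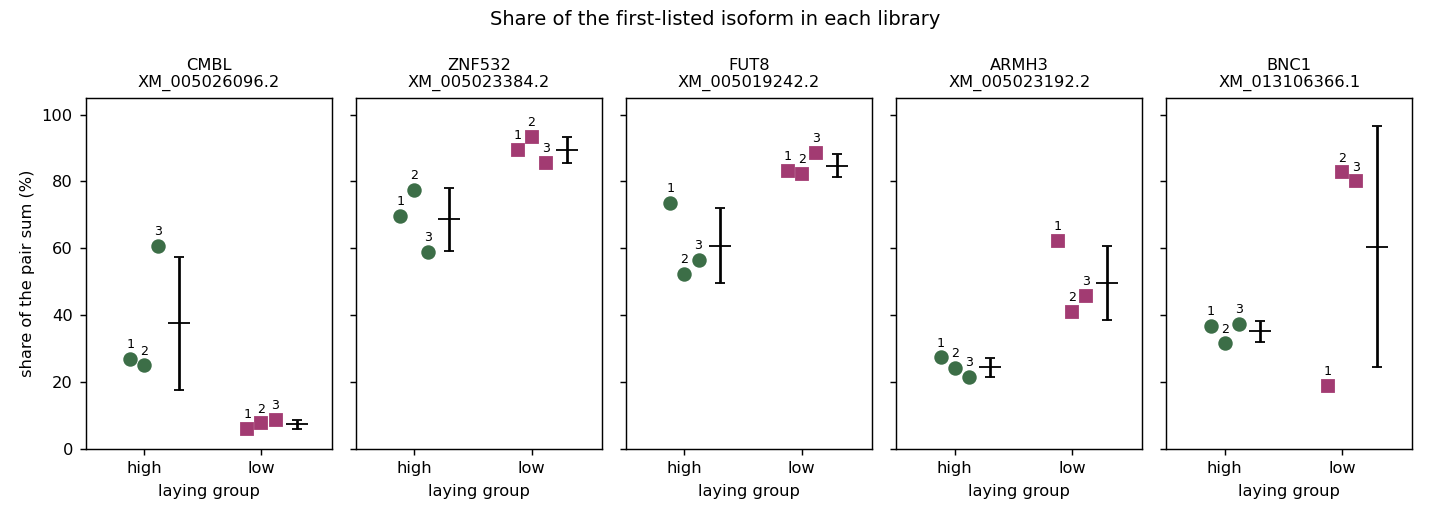
The share of the first-listed isoform in the pair sum is plotted in percent for each library, numbered within its group, with the group mean and SD beside the points (n = 3 each); high is left of low. The groups are apart for CMBL, ZNF532, FUT8 and ARMH3, and the low libraries of BNC1 lie at 18.8%, 80.01% and 82.7%, on both sides of the high libraries.

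The 5 pairs differed in how their spread was divided. Within the high group the share ranged over 35.6 points for CMBL, 21.2 points for FUT8 and 18.6 points for ZNF532, but only 5.77 points for ARMH3 and 5.74 points for BNC1. Within the low group the order was turned, with ranges of 63.9 points for BNC1, 21.3 points for ARMH3, 7.78 points for ZNF532, 6.35 points for FUT8 and 2.57 points for CMBL. The median range over the other 543 pairs was 9.06 points in the high group and 12.3 points in the low group. A share near either end of its scale has less room to vary in points, as in the low group for CMBL, FUT8 and ZNF532. In proportion, the ZNF532 isoform ratio (first over second) spread similarly: 1.43 to 3.42 in high and 5.95 to 14.1 in low. For CMBL and FUT8 the ratio spread more widely in high libraries. High against low, it was 0.333 to 1.54 against 0.0632 to 0.0931 for CMBL, and 1.10 to 2.78 against 4.64 to 7.79 for FUT8. The larger isoform changed between libraries in CMBL, ARMH3 and BNC1, as it did in 28.3% of the 548 pairs.

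**Figure D4:**
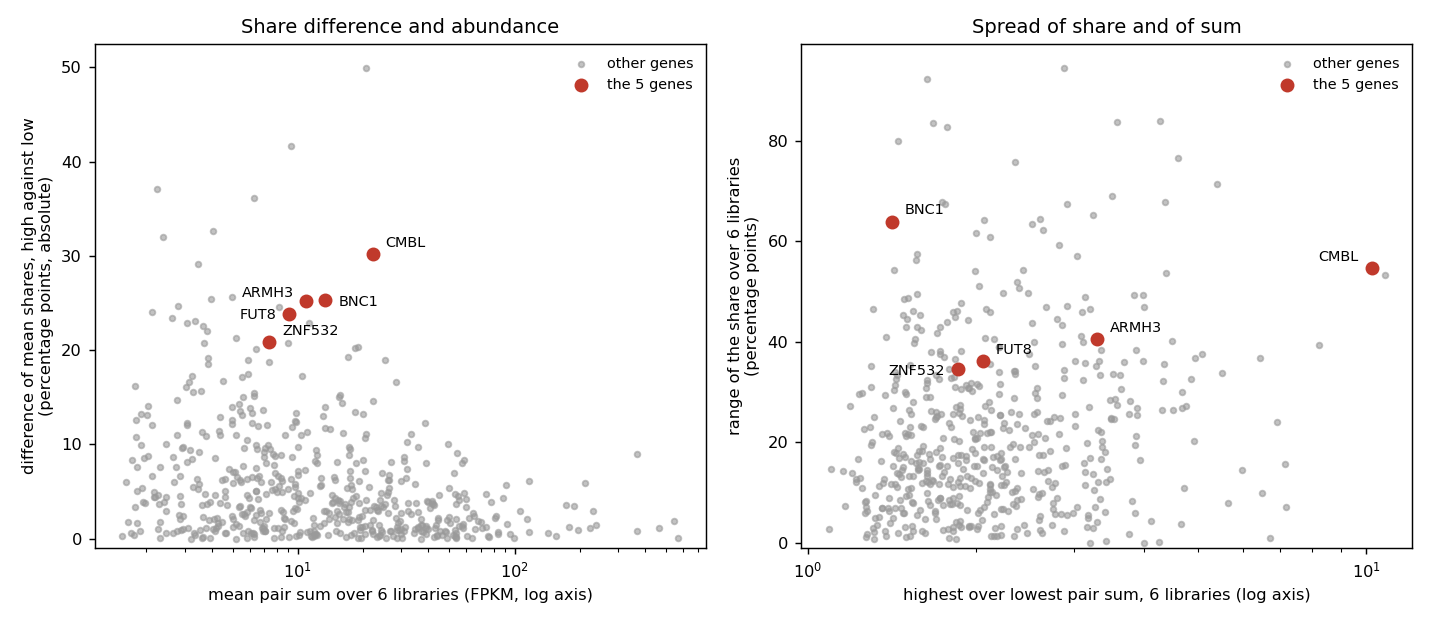
Each point is 1 gene with a pair of matched transcripts (grey, 543 other genes; red, the 5 genes). The left panel sets the absolute difference of mean shares against the mean pair sum, and the right panel the range of the share over 6 libraries against the highest over lowest pair sum; both horizontal axes are logarithmic. The 5 genes lie between 20.8 and 30.2 points on the left, where the median of the others is 3.81 points, and BNC1 joins a wide range of shares to a steady sum on the right.

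The pairs were of middling abundance. Mean sums over the 6 libraries were 22.2 FPKM for CMBL, 13.3 FPKM for BNC1, 10.9 FPKM for ARMH3, 9.10 FPKM for FUT8 and 7.38 FPKM for ZNF532, against a median of 10.97 FPKM over the other pairs. The CMBL sum had a highest over lowest of 10.2, above that of 99.8% of the other pairs. It was 63.8 FPKM in low 1 and 25.5 FPKM in low 3, the next highest. Since these values chose the pairs, this rank and those given for BNC1 are descriptions only. All 10 transcripts passed the abundance filter, and 8 were at 1 FPKM or more in every library; XM_005023388.2 of ZNF532 was so in 4 and XM_005019244.2 of FUT8 in 5.

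Genes that work with these 5, or belong to the same pathway, family or enzyme class, were measured where the tables allowed it. Of 121 genes on 5 lists, 13 had a tested transcript, and 0 were called higher and 0 lower by limma between the groups (4 had a log2 difference above 0 and 9 below, with a median of -0.050). Over all 19790 transcripts tested, 0.00505% were called, which is 1 transcript, and the median log2 difference was -0.003. At an unadjusted limma p under 0.05 there were 0 of the 13 and 694 of all, a count that was 1920 without low 1, 1457 without low 3 and 451 without high 2. For N-glycan processing around FUT8, 5 of 30 genes were tested. ST6GAL1, which caps N-glycans with sialic acid, was at 12.7 ± 3.601 FPKM in high and 14.1 ± 4.23 FPKM in low ovaries, and FUT10, of the fucosyltransferase family, at 5.56 ± 1.54 and 4.71 ± 1.15 FPKM. For the Golgi genes around ARMH3, 3 of 25 were tested. ACBD3, a Golgi scaffold that recruits PI4KB, was at 44.0 ± 4.03 FPKM in high and 47.8 ± 11.6 FPKM in low ovaries, and GOLGA5, a golgin, at 23.7 ± 2.54 and 24.7 ± 5.42 FPKM.

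Of 18 genes listed around ZNF532, 2 were tested. ZNF592, a partner of ZNF532, was at 18.2 ± 2.90 FPKM in high and 23.4 ± 4.51 FPKM in low ovaries, with -0.34 as the log2 difference, high minus low (SE 0.199, adjusted p = 1.0 by limma). CCNT2, a cyclin of the elongation kinase P-TEFb, was at 1.38 ± 1.20 and 2.81 ± 1.06 FPKM in its most abundant transcript. Around BNC1, TAF1B, a factor of RNA polymerase I, was at 16.0 ± 1.34 FPKM in high and 14.4 ± 3.46 FPKM in low ovaries. Of the hydrolases set beside CMBL, ABHD17C was at 19.3 ± 3.47 and 16.8 ± 2.95 FPKM and AADAC at 6.58 ± 1.87 and 6.87 ± 1.97 FPKM in high and low.

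Transcripts of other genes were looked up that followed the log2 ratio of a pair (first over second) most closely over the 6 libraries. For this ratio 1 FPKM was added to each isoform, which weighs most on low isoforms such as ZNF532 XM_005023388.2. The search covered 2186 tested transcripts with a gene symbol. With only 6 points and so many candidates, high correlations are common, and they are given as descriptions without p-values. The BNC1 ratio was followed by MMP23B, a metalloproteinase of the membrane (Pearson r = 0.998), at 7.05, 6.28 and 6.66 FPKM in high libraries and at 5.28, 12.1 and 11.5 FPKM in low libraries, and by ENTPD1, an ectoenzyme that degrades extracellular ATP (r = 0.983). The ARMH3 ratio was followed most closely by CMBL XM_005026097.2, itself one of the 10 transcripts (r = 0.989), and then by KNG1, the kininogen gene (r = 0.985). Both of these transcripts were highest in low 1 and lowest in high 3. The ARMH3 pair and the CMBL transcript were both chosen by their values in these libraries, so their likeness is partly built in. KNG1 was near the abundance filter, at 0.866, 0.758 and 0.451 FPKM in high libraries and at 1.98, 1.08 and 1.32 FPKM in low libraries. It passed that filter through the low libraries only, so its likeness to a ratio that was higher in low is partly built in. The ZNF532 ratio was followed by FAH, an enzyme of tyrosine breakdown (r = 0.986), at 8.83, 9.08 and 7.97 FPKM in high libraries and at 10.7, 11.96 and 11.04 FPKM in low libraries, and by CASS4, an adaptor of focal adhesions (r = 0.976). The FUT8 ratio was followed by a transcript of MATR3, a nuclear matrix protein (r = 0.983), and by a non-coding transcript of MLXIP, a glucose-responsive transcription factor (r = 0.971). MATR3 was at 1.77, 0.798 and 0.687 FPKM in high libraries and at 2.51, 2.69 and 3.12 FPKM in low libraries. Without the low libraries it would not have passed the abundance filter, so its likeness to a ratio that was higher in low is also partly built in. The CMBL ratio was followed by FEM1B and THYN1 (r = 0.955 for each), of which FEM1B, a substrate receptor of a ubiquitin ligase, differed little, at 22.5 to 25.6 FPKM in high and 20.6 to 21.9 FPKM in low libraries.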

How the data were processed

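Duck ovary RNA was sequenced in 6 stranded Illumina TruSeq mRNA libraries, per the labels' protocols. Bowtie2 2.0.6 and TopHat2 2.0.9 were used, per the submitters' processing notes; for quantifier, build and annotation, nothing is given in the sources used here. The deposited tables name no unit, and their fractional values, with sums that differ between libraries, were read as FPKM, so this unit is inferred. Depth is unknown, since no counts were used, and precision rests on the replicates. Gene names came from RefSeq accessions of the IASCAAS Pekin duck assembly, matched without version (4636 of 41952 transcripts, or 11.1%). All 10 members matched under later versions of the same accession, so their exon structures may have been revised; how the isoforms of a pair differ in sequence was not analysed here. Of the transcripts in the newer gene table, 2 of 2 were matched for CMBL, 3 of 20 for ZNF532 and 4 of 8 for FUT8. For ARMH3 2 of 7 were matched and for BNC1 2 of 3, so a pair sum may not be the whole output of its gene. Members and gene lists were chosen with earlier results of these data known.

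Shares and sums were computed per library, with Python 3.11.15 and pandas 2.3.3. The background pairs were the 2 most abundant matched transcripts of each gene whose sum reached 1 FPKM in every library. The second transcript had no minimum of its own, so some background shares had little room to vary. Transcripts that reached 1 FPKM in 3 or more libraries were compared, high minus low, with limma-trend (limma 3.58.1, R 4.3.3) on log2(FPKM + 1), which understates the change of low transcripts, with Benjamini-Hochberg adjustment at 0.05, two-sided. The script was tested on simulated data. The text names the 10 members, all other matched transcripts of their genes, the 2 best correlated named transcripts per pair and the 2 most abundant tested genes of each list. No gene of the theca marker list was matched (0 of 8 listed), and that list did not hold CYP19A1.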

Additional observations from a re-analysis of the deposited data

How the results depend on the processing

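The sign of all 5 share differences was kept under every alternative run: shares of all matched transcripts, 1 FPKM added to each isoform, medians for means, and each library left out. For CMBL, ZNF532, FUT8 and ARMH3, whose shares did not overlap between the groups, medians and leaving out a library could not change the sign. For CMBL, ARMH3 and BNC1 no further transcript was matched, so the shares of all matched transcripts repeat the main result. With a library left out, the differences in percentage points ran from 18.6 to 36.4 for CMBL, -25.2 to -15.9 for ZNF532, -30.2 to -19.6 for FUT8, -29.6 to -18.9 for ARMH3 and -46.2 to -14.2 for BNC1. The log2 difference of CMBL XM_005026096.2 alone, a check added after the data were seen, ran from -0.010 to 0.496; the other 9 members kept their sign. By medians the share differences were 19.4 for CMBL and -43.2 for BNC1. The log2 differences of the sums ran from -2.16 to -1.28 for CMBL, -0.46 to -0.24 for ZNF532, -0.29 to 0.18 for FUT8, -0.026 to 0.53 for ARMH3 and -0.10 to 0.13 for BNC1, so the last 3 have no settled direction. Pairs with shares that did not overlap numbered 59 of 548, 39 of 326 at a minimum sum of 5 FPKM, and 156 of 1392 over all pairs within genes. By limma, 0 transcripts were called without an abundance filter (1771 at an unadjusted p under 0.05), against 1 with it, and between 1 and 3 with a library left out. The count at an unadjusted p under 0.05 was 694 with the filter, 351 at a minimum of 5 FPKM, and between 451 and 1920 with a library left out. The cause of these changes was not tested. The limma fits held 39755 transcripts without the filter, 19790 with it and 12131 at a minimum of 5 FPKM. Each fit with a library left out held 19790. The pathway genes gave 0 calls in each of these fits. No paired analysis was possible because the labels give the groups no shared replicate numbers.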
